A study of Mus musculus with 84 samples.

Results

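The inward rectifier potassium channels were followed here as a family of 10 genes in the ventrolateral striatum of mice: Kcnj2, Kcnj3, Kcnj4, Kcnj5, Kcnj6, Kcnj9, Kcnj10, Kcnj11, Kcnj12 and Kcnj16. They were taken from the deposited gene count table by gene symbol, all 10 were found among its 43629 genes, and all 10 were among the 17071 genes with enough counts to be tested. RNA had been sequenced from tissue dissected by hand from 84 adult mice at selection generation 4 of the SOT and NOT lines, which are genetic models of selection on ethanol preference together with withdrawal. Of the mice, 44 are labelled High Drinker (21 females and 23 males) and 40 Low Drinker (18 females and 22 males). Every animal was naive, so the group names describe the line and not a drinking history of the animal sampled. The labels do not say which line name belongs to which group, nor do they give exact ages, relatedness or replicate lines. Each animal is therefore treated as independent in the p-values, which measure spread between animals and not between replicate lines. Effects of selection were not tested apart from other differences between the lines.

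Inward rectifiers pass potassium more readily into the cell than out of it, hold the membrane near the potassium equilibrium potential, and are assembled from subunits that each subfamily contributes differently. The Kir2 genes (Kcnj2, Kcnj4 and Kcnj12) encode strongly rectifying channels that keep medium spiny neurons, the principal neurons of the striatum, hyperpolarized at rest. The Kir3 genes (Kcnj3, Kcnj5, Kcnj6 and Kcnj9) encode channels opened by the beta and gamma subunits of G proteins downstream of opioid, GABA type B, dopamine, muscarinic and other receptors, and ethanol opens these channels directly. Kcnj11 encodes the pore of the channel closed by ATP, while Kcnj10 and Kcnj16 encode subunits of glial channels with which astrocytes clear potassium. Kcnj9 and Kcnj10 lie beside each other on distal chromosome 1 of the mouse, in a region linked to withdrawal from alcohol and sedatives.

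Total gene counts per library ran from 22190363 to 41300401. The sample numbers that end the titles fall into 3 runs, called sheet sets here (48, 30 and 6 libraries), over which the lines were unequally spread. Their standing as technical batches is inferred from that numbering alone. In earlier work on these data 5 libraries stood apart in expression, namely High Drinker 17 along with Low Drinker 8, 32, 33 and 34, and results are given without them where that matters. Markers of medium spiny neurons, the cell type that defines the striatum, were present in every library, but their summed level was uneven, from 654 to 11713 CPM, gene counts scaled to library size, in High Drinker and from 430 to 10059 CPM in Low Drinker libraries. Markers of cortical glutamatergic neurons, which the striatum lacks, were also present, with summed levels from 139.5 to 2943 CPM in High Drinker and from 399 to 3475 CPM in Low Drinker libraries. In bulk tissue, fewer cells of a type and less RNA per cell cannot be told apart.

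The levels of the channels spanned a wide range, and 1 gene of each neuronal subfamily outweighed the others. Levels of different genes were compared per gene length, as RPKM, which divides CPM by the gene length in kilobases from the deposited table, and the spread of a level is its SD throughout. Kcnj4 was highest, at 88.1 ± 13.7 RPKM (SD) over the 44 High Drinker libraries and 83.7 ± 15.04 RPKM over the 40 Low Drinker libraries. Over all 84 libraries it averaged 86.0 ± 14.4 RPKM and exceeded the next gene, Kcnj10 (39.8 ± 9.04 RPKM), in 83 of 84 libraries.

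Kcnj9 followed at 33.8 ± 12.3 RPKM and did not differ from Kcnj10 by more than the larger of their SDs, with Kcnj10 the higher in 57 of 84 libraries. Kcnj9 exceeded Kcnj3 (20.4 ± 8.20 RPKM) in 84 of 84 libraries. Kcnj3 and Kcnj11 (14.8 ± 3.36 RPKM) lay within 1 SD of each other. A lower tier held Kcnj2 (6.36 ± 2.66 RPKM), Kcnj12 (5.35 ± 0.756 RPKM) and Kcnj16 (4.32 ± 1.10 RPKM), each within 1 SD of its neighbour in the order. Kcnj6 (2.75 ± 1.33 RPKM) and Kcnj5 (0.366 ± 0.219 RPKM) closed the order, each more than 1 SD below the gene above it. Kcnj11 has the shortest gene model of the family, a single exon of 1173 bases, and any reads outside that exon are not in its level. Exons of another gene overlap 31.1% of the exon bases of Kcnj3, so its level and its share of the Kir3 genes may be understated, which was not tested.

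**Figure D1:**
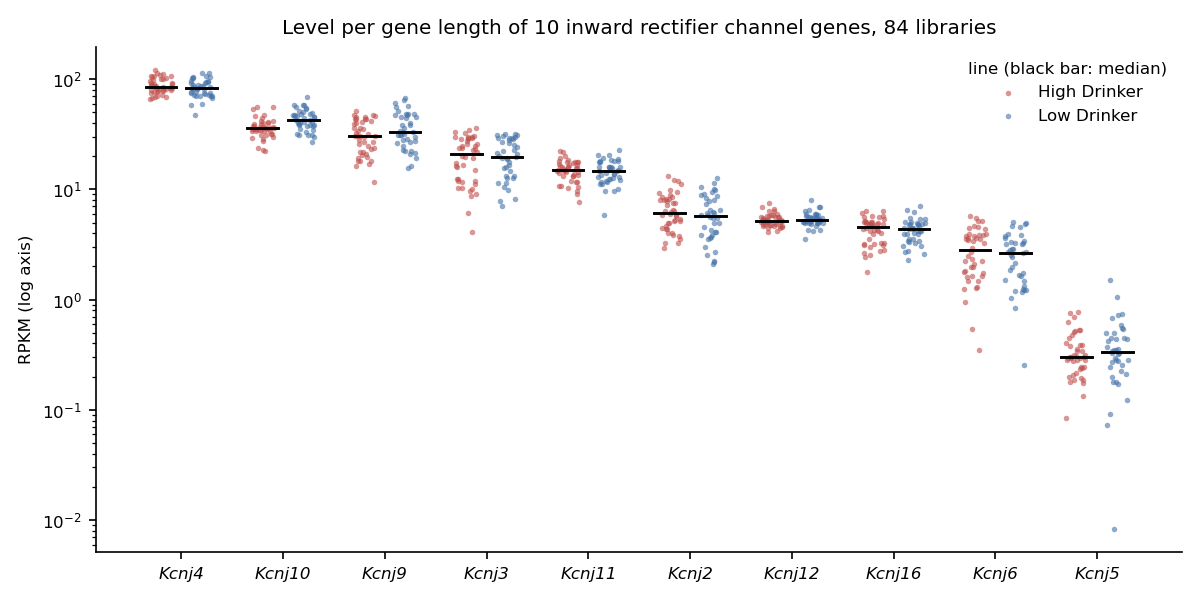
Level per gene length in RPKM (log axis) of the 10 genes, ordered by their mean over 84 libraries, with High Drinker libraries in red on the left of each pair and Low Drinker libraries in blue on the right. Points are libraries and black bars medians. Kcnj4 has the highest medians and Kcnj5 the lowest, and the points of the lines overlap for every gene.

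Within the Kir2 genes, Kcnj4 made up 88.0 ± 2.26% of the summed level per length across High Drinker libraries and 87.8 ± 2.77% across Low Drinker libraries. Within the Kir3 genes Kcnj9 made up 58.1 ± 5.14% across High Drinker libraries and 61.1 ± 5.38% across Low Drinker libraries, and Kcnj3 36.02 ± 4.71% across High Drinker libraries and 33.8 ± 4.76% across Low Drinker libraries. Kcnj6, the subunit Kir3.2 that most Kir3 channels of midbrain dopamine neurons contain, contributed 5.06 ± 1.24% across High Drinker libraries and 4.20 ± 1.20% across Low Drinker libraries. Kcnj5, best known as the partner of Kcnj3 in the cardiac atrium, contributed 0.787 ± 0.589% across High Drinker libraries and 0.849 ± 0.758% across Low Drinker libraries. These shares describe RNA, and they were not tested between lines. They are shares in the tissue as dissected, with cortical markers present, which Kcnj3, Kcnj6 and Kcnj9 followed over the libraries (given below).

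Spread between libraries separated the genes in another way, with differences of sheet set, sex and line left in the values. The coefficient of variation of CPM over all 84 libraries was 60.0% for Kcnj5, 48.4% for Kcnj6, 41.7% for Kcnj2, 40.3% for Kcnj3 and 36.4% for Kcnj9. It was 25.5% for Kcnj16, 22.7% for Kcnj10 and 22.6% for Kcnj11. Kcnj4 (16.8%) and Kcnj12 (14.1%) lay near the median of 15.9% over tested genes with at least 1 CPM. So all 4 Kir3 genes and Kcnj2 were among the more variable genes, with between 89.3% and 96.9% of genes less variable than each.

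The comparison of the lines asked which channels differed between animals bred for a different response to ethanol. Kcnj10, the astrocytic Kir4.1 subunit, was lower in High Drinker animals, and it was the 1 gene of 10 that passed (edgeR quasi-likelihood test with Benjamini-Hochberg adjustment over all tested genes at 0.05). Over all genes tested 3.94% passed in either direction and 2.08% were lower in High Drinker animals, so 1 of 10 is a small count to read against that background. Of the log2 fold changes of the 10 genes (High Drinker over Low Drinker) 6 were positive and 4 negative, from -0.24 for Kcnj10 to 0.29 for Kcnj6. Their median absolute log2 fold change was 0.10, beside 0.06 over all genes tested. The Kir3 genes and Kcnj2 were among the more variable genes, and these medians take no account of that. The medians were not tested against each other.

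**Figure D2:**
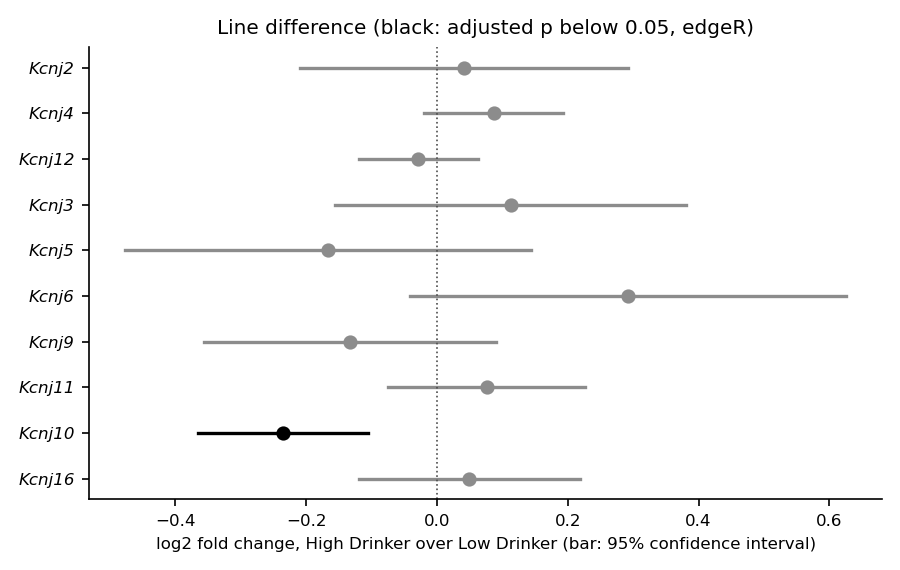
Log2 fold change of each gene, High Drinker over Low Drinker, with its 95% confidence interval from edgeR, ordered by subfamily from Kir2 at the top to the glial genes at the bottom. Black marks an adjusted p below 0.05 and grey the rest. The interval of Kcnj10 (-0.37 to -0.10) lies wholly below 0, and the other 9 intervals include 0.

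**Figure D3:**
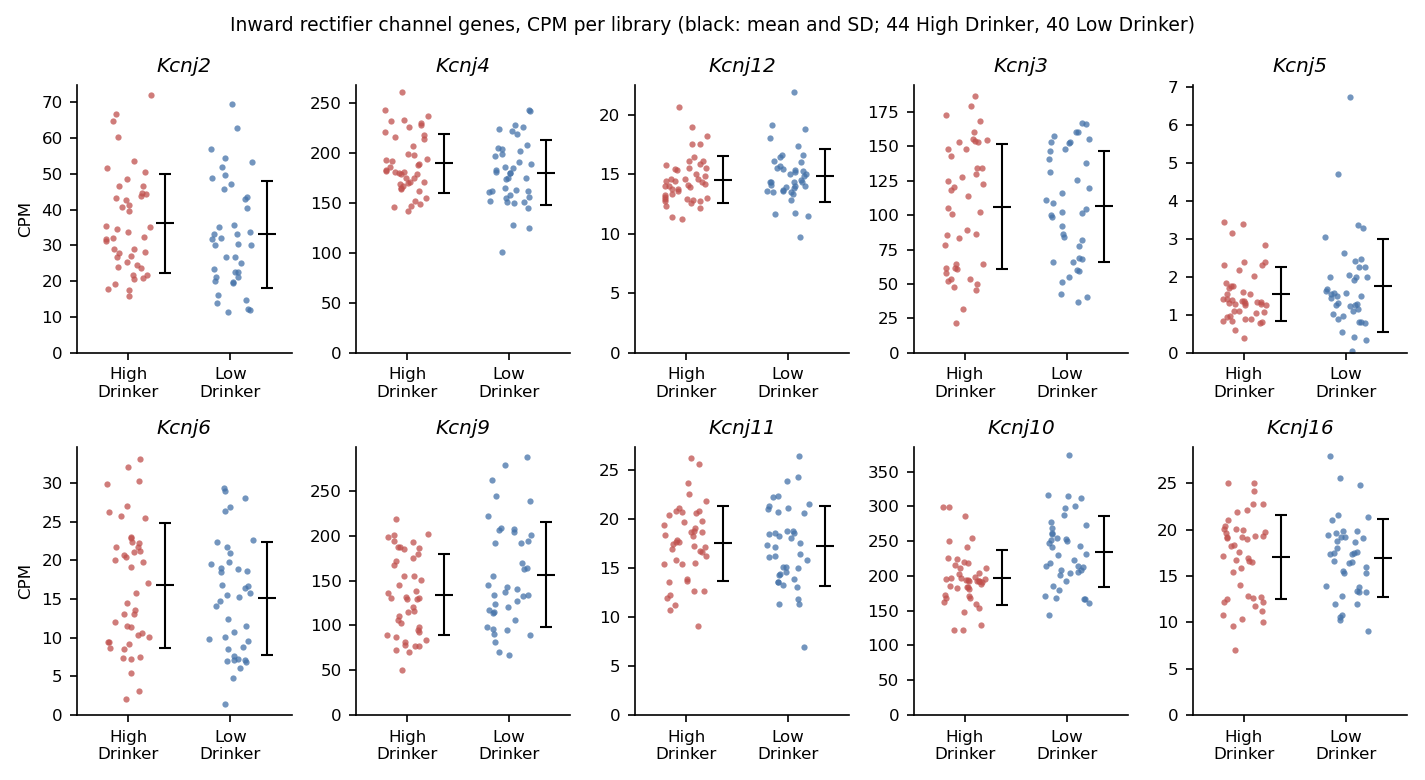
CPM of each of the 10 genes per library, High Drinker on the left and Low Drinker on the right of each panel, with linear axes that start at 0. Points are libraries and black marks the mean and SD. For Kcnj10 the mean is 197 CPM across High Drinker libraries and 235 CPM across Low Drinker libraries, and in every panel the points of the lines overlap.

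Among the Kir2 genes the lines did not differ detectably. Kcnj2 (ENSMUSG00000041695, chromosome 11, 111066164 to 111076821, mm10) encodes Kir2.1, a channel whose block depolarizes the resting membrane. Its lowest, median and highest levels were 15.99, 33.1 and 71.9 CPM in High Drinker libraries, against 11.4, 31.1 and 69.5 CPM in Low Drinker libraries. The groups overlapped, with High Drinker 17 highest and Low Drinker 21 lowest. Its log2 fold change was 0.04 ± 0.13 (SE, edgeR adjusted p = 0.907), with a 95% interval of -0.21 to 0.29, and the sign turned in 1 of 84 fits that each left out 1 library.

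Kcnj4 (ENSMUSG00000044216, chromosome 15, 79483718 to 79505241) encodes Kir2.3, the Kir2 subunit that dominated in this tissue. It ran from 141.7 to 260.1 CPM in High Drinker libraries with a median of 181.7, against 101 to 242 CPM in Low Drinker libraries with a median of 179.6. Both groups covered nearly the same range, High Drinker 4 being highest and Low Drinker 2 lowest. The log2 fold change was 0.09 ± 0.05 (SE, edgeR adjusted p = 0.399), and its 95% interval of -0.02 to 0.19 excludes changes beyond 14.3% upward.

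The promoter of Kcnj4 is shown because this gene dominated the subfamily and its start site stood out in base composition. The 250 bases before its annotated start (RefSeq, GRCm38.p6, chr15:79505242-79505491, minus strand) had a GC content of 77.2% and 35 CpG dinucleotides, above 97.4% and 97.0% of the 32851 mouse promoters of the same length. Capitals mark the GC box (GGGCGG on either strand), found 3 times in Kcnj4, including an adjoining pair on opposite strands. The motif was present at least 1 time in 32.7% of all promoters, and such a match is a description of letters only.
Kcnj4 promoter: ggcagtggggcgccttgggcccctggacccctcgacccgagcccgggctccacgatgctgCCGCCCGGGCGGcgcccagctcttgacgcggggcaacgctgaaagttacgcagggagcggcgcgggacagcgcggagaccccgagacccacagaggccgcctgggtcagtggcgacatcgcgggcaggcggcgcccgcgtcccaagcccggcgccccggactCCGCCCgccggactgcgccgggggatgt

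Kcnj12 (ENSMUSG00000042529, chromosome 11, 61022564 to 61071131), which encodes Kir2.2, varied least. Its levels ran from 11.2 to 20.6 CPM in High Drinker libraries (median 14.3) and from 9.72 to 21.9 CPM in Low Drinker libraries (median 14.5). All 44 High Drinker libraries lay inside the Low Drinker range. Kcnj12 had a log2 fold change between the lines of -0.03 ± 0.05 (SE, edgeR adjusted p = 0.806), with a 95% interval that reached from -7.92% to 4.42%.

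Among the Kir3 genes 0 of 4 passed in edgeR, with 0 of 4 under an unadjusted 0.05. Over all genes tested 3.94% passed, and 3078 of 17071 had an unadjusted p under 0.05. Kcnj3 (ENSMUSG00000026824, chromosome 2, 55435970 to 55598145), the subunit Kir3.1 that needs a partner to reach the cell surface, ran from 21.5 to 187 CPM in High Drinker libraries (median 109.5), against 37.1 to 167 CPM in Low Drinker libraries (median 103). Its extremes on both sides were High Drinker animals, number 17 the lowest and number 43 the highest. The log2 fold change was 0.11 ± 0.13 (SE, edgeR adjusted p = 0.724), and without the term for sheet set it was -0.003. Exons of Gm26794 on the opposite strand overlap 31.1% of the exon bases of Kcnj3, and the protocol as described keeps no record of strand. The counting settings are not stated, so reads in the shared bases may be missing from the level of Kcnj3. Gm26794 held 7553 counts in all libraries together, beside 280570 for Kcnj3.

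Kcnj6 (ENSMUSG00000043301, chromosome 16, 94749266 to 94997696) encodes the subunit Kir3.2, which contains a pocket that binds alcohols. It ran from 2.03 to 33.1 CPM in High Drinker libraries (median 16.4), against 1.48 to 29.4 CPM in Low Drinker libraries (median 15.4). The lowest values, in High Drinker 17 and Low Drinker 8, belonged to libraries that stood apart, and the 3 highest to High Drinker animals. It had the largest positive log2 fold change of the family, 0.29 ± 0.17 (SE, edgeR adjusted p = 0.357), with a 95% interval of -0.04 to 0.63 that reaches from -2.82% to 54.3%. That value was 0.39 in sheet set 1 alone and 0.10 in sheet set 2 alone. With 5 surrogate variables in the model, which take up variation shared by many genes, it was 0.27 and passed (edgeR adjusted p = 0.0196). That model called 2278 of 17071 genes, against 672 in the main fit. Over the other alternatives the adjusted p of Kcnj6 ran from 0.117 to 0.978.

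Kcnj9 (ENSMUSG00000038026, chromosome 1, 172320501 to 172329318) encodes Kir3.3, a subunit that steers Kir3 channels toward degradation and whose loss in mice is known to lessen withdrawal. Its lowest, median and highest levels were 50.4, 130.4 and 219 CPM in High Drinker libraries, against 67.1, 141.7 and 288 CPM in Low Drinker libraries. The lowest library was High Drinker 17, while the 3 highest were Low Drinker 34, 21 and 35, and the groups overlapped broadly, with 26 of 44 High Drinker libraries below the Low Drinker median. The log2 fold change was -0.13 ± 0.11 (SE, edgeR adjusted p = 0.581), with a 95% interval of -0.36 to 0.09. Males alone gave -0.31 (edgeR adjusted p = 0.305) and females alone 0.02 (edgeR adjusted p = 0.973), and the test of that difference between sexes did not pass (interaction 0.32, edgeR adjusted p = 0.784). With 5 surrogate variables the log2 fold change was -0.10 and passed (edgeR adjusted p = 0.0469). In that model 2278 of 17071 genes passed, against 672 in the main fit. Over the other alternatives the adjusted p of Kcnj9 ran from 0.164 to 0.973.

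Kcnj5 (ENSMUSG00000032034, chromosome 9, 32314783 to 32344237), which encodes Kir3.4, was the scarcest member. It ran from 0.383 to 3.44 CPM in High Drinker libraries (median 1.35), against 0.0370 to 6.72 CPM in Low Drinker libraries (median 1.52). Both extremes were Low Drinker animals: number 32, with 1 read, and number 3, with 245 reads. Number 32 is among the libraries that stood apart, and number 3 belongs to sheet set 3. In sheet set 3 Kcnj5 averaged 2.62 ± 1.36 CPM across High Drinker and 4.82 ± 1.84 CPM across Low Drinker libraries (n = 3 each). The means, High Drinker first, were 1.46 and 1.81 CPM in sheet set 1 and 1.45 and 1.24 CPM in sheet set 2. The log2 fold change of Kcnj5, -0.17 ± 0.16 (SE, edgeR adjusted p = 0.634), allows anything from -28.1% to 10.5%.

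The ATP-sensitive channel combines pores encoded by Kcnj11 or Kcnj8 with sulfonylurea receptors encoded by Abcc8 or Abcc9. Kcnj11 (ENSMUSG00000096146, chromosome 7, 46098725 to 46099897) ran from 9.08 to 26.3 CPM in High Drinker libraries (median 17.7), against 6.90 to 26.4 CPM in Low Drinker libraries (median 17.3). All 44 High Drinker libraries lay inside the Low Drinker range, and Low Drinker 8 was lowest. Between the lines its log2 fold change was 0.08 ± 0.08 (SE, edgeR adjusted p = 0.660). Abcc8, the neuronal receptor and the chromosomal neighbour of Kcnj11, had a value of -0.08 on the same log2 scale (edgeR adjusted p = 0.6498).

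Abcc9, the receptor of vascular smooth muscle and pericytes, rose in High Drinker animals. It averaged 8.04 ± 1.47 CPM (SD) over the 44 High Drinker libraries and 6.90 ± 1.22 CPM over the 40 Low Drinker libraries, and 34 of 44 High Drinker libraries exceeded the median of the Low Drinker group. Its log2 fold change was 0.20 ± 0.06 (SE, edgeR adjusted p = 0.0285), and the call was kept in 8 of 14 alternatives but not without the 5 libraries that stood apart (edgeR adjusted p = 0.0545). Its adjusted p ran from 0.00820 to 0.950 over the 14. Its usual pore Kcnj8 was at 3.03 ± 0.463 CPM across High Drinker libraries and 3.10 ± 0.476 CPM across Low Drinker libraries (log2 fold change -0.05, edgeR adjusted p = 0.646).

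Kcnj10 (ENSMUSG00000044708, chromosome 1, 172341210 to 172374085) encodes Kir4.1, the main potassium conductance of astrocytes. Its lowest, median and highest levels were 122, 193 and 299.5 CPM in High Drinker libraries, against 144 to 373 CPM with a median of 231 in Low Drinker libraries. High Drinker 14, 17 and 8 were lowest and Low Drinker 2, 18 and 21 highest, and 38 of 44 High Drinker libraries lay below the Low Drinker median, though 41 of 44 lay inside the Low Drinker range. Kcnj10 averaged 197 ± 39.6 CPM (SD) over the 44 High Drinker libraries and 235 ± 50.97 CPM over the 40 Low Drinker libraries. The log2 fold change was -0.24 ± 0.07 (SE, edgeR adjusted p = 0.0240), with a 95% interval of -0.37 to -0.10, or -22.4% to -7.00% of the Low Drinker level.

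The sexes gave nearly the same difference. In females Kcnj10 averaged 201 ± 36.3 CPM across High Drinker libraries and 241 ± 57.7 CPM across Low Drinker libraries, and in males 194 ± 42.9 CPM across High Drinker libraries and 229.7 ± 45.4 CPM across Low Drinker libraries. Fitted alone, each sex gave a log2 fold change of -0.25 and missed the threshold (edgeR adjusted p = 0.371 in females and 0.186 in males). In sheet set 1 the means were 191 ± 39.2 CPM in High Drinker (n = 30) and 230.0 ± 53.3 CPM in Low Drinker libraries (n = 18), and the log2 fold change was -0.28 (edgeR adjusted p = 0.149). In sheet set 2 they were 211 ± 42.6 CPM in High Drinker (n = 11) and 230.3 ± 39.5 CPM in Low Drinker libraries (n = 19), and the log2 fold change was -0.14 (edgeR adjusted p = 0.925). Sheet set 3, with 3 libraries of each line, showed the widest gap, 212 ± 18.1 CPM across High Drinker libraries and 294 ± 82.4 CPM across Low Drinker libraries. Without sheet set 3 the call was lost (log2 fold change -0.21, edgeR adjusted p = 0.0561). The call held in all 84 fits that left out 1 library (log2 fold change -0.26 to -0.22) and without the 5 libraries that stood apart (-0.26, edgeR adjusted p = 0.00838). Over 14 alternatives other than these 84 fits the adjusted p ran from 0.000204 to 0.925.

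Kcnj16 (ENSMUSG00000051497, chromosome 11, 110968033 to 111027968), which encodes the subunit Kir5.1 that joins Kir4.1 in astrocytes and makes the channel sensitive to pH, did not differ detectably between the lines. Its lowest, median and highest levels were 6.96, 17.9 and 25.1 CPM in High Drinker libraries, against 9.09, 17.4 and 27.9 CPM in Low Drinker libraries. The groups overlapped almost wholly, with 23 of 44 High Drinker libraries above the Low Drinker median. Between the lines its log2 fold change was 0.05 ± 0.08 (SE, edgeR adjusted p = 0.823), with a 95% interval of -7.95% to 16.3%. That interval overlaps the interval of -22.4% to -7.00% for Kcnj10, and the difference between these genes was not tested. Per length, Kcnj10 was 8.93 ± 2.52 times Kcnj16 (SD) over the 44 High Drinker libraries and 10.5 ± 2.45 times over the 40 Low Drinker libraries, a ratio that was not tested.

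Astrocyte markers were set beside this result, since Kcnj10 is largely an astrocyte gene. In edgeR 3.94% of all tested genes passed, and 3078 of 17071 had an unadjusted p under 0.05. Of 11 astrocyte markers 0 passed in edgeR, DESeq2 or limma-voom (3 at an unadjusted p under 0.05 in edgeR). Of the 11, 7 had a positive log2 fold change, and the median of the 11 was 0.03. Their summed level ran from 3479 to 5368 CPM in High Drinker (median 4384) and from 2809 to 4834 CPM in Low Drinker libraries (median 4228), and 0 of 11 were at 0. With scores of the medium spiny neuron, cortical, astrocyte and oligodendrocyte markers as covariates the log2 fold change of Kcnj10 was -0.29 (edgeR adjusted p = 0.000204).

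Kcnj9 and Kcnj10 are transcribed away from each other, from start sites 11888 bases apart. Their promoters are shown as a pair because the withdrawal region holds both genes and the test called 1 of them. The 250 bases before each start come from RefSeq (GRCm38.p6), for Kcnj10 chr1:172340960-172341209 on the plus strand and for Kcnj9 chr1:172329323-172329572 on the minus strand. Capitals mark matches on either strand to the GC box GGGCGG, the TATA box TATAAA and the CCAAT box CCAAT, and the E-box CACGTG was also searched.
Kcnj10 promoter: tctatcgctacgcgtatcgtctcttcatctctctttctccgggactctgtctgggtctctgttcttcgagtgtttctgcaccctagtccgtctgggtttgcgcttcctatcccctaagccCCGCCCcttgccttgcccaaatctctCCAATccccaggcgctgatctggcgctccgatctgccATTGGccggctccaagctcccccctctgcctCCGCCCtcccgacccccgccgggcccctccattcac
Kcnj9 promoter: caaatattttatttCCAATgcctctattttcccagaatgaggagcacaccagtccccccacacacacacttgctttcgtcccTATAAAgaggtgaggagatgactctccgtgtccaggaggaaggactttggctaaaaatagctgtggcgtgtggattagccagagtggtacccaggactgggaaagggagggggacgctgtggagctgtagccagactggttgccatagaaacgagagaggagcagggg
The Kcnj10 promoter had a GC content of 62.0% and 17 CpG dinucleotides, with 2 GC boxes and 2 CCAAT boxes. The Kcnj9 promoter had a GC content of 52% and 5 CpG dinucleotides, close to the medians of all promoters (52.4% and 6), with 1 TATA box that begins 168 bases before the start and 1 CCAAT box. Of all promoters 32.7% held a GC box, 12.4% a TATA box, 33.8% a CCAAT box and 6.02% an E-box, which neither of the pair held. RefSeq promoters were found for 9 of the 10 genes.

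Genes around this pair differed between the lines in both directions. Within 500 kb of Kcnj9 or Kcnj10, 21 other genes were described, of which 5 rose and 2 fell in High Drinker animals (33.3%, beside 7.31% of the 1163 tested genes on chromosome 1). Genes at a short distance are inherited together, so these calls are not independent. Of these 7 genes 6 are named by smallest p. Dcaf8, a substrate receptor of a ubiquitin ligase, rose to 165 ± 11.7 CPM (SD) in High Drinker, against 154 ± 13.9 CPM in Low Drinker libraries (log2 fold change 0.12, edgeR adjusted p = 0.00158). Copa, a subunit of the coat of vesicles that return to the endoplasmic reticulum, had a log2 fold change of 0.21, and Ncstn, a subunit of gamma-secretase, of 0.16.

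Vsig8 (0.53), 4933439K11Rik (-0.57) and Slamf8 (-0.70) moved most, at means under 0.5 CPM in both lines. The spans of Vsig8 and 4933439K11Rik overlap on opposite strands, and the protocol as described keeps no record of strand. The effect of that overlap on their counts was not tested. In sheet set 1 alone 2 of 20 neighbours passed, beside 79 of 17228 genes. In sheet set 2 alone 0 of 21 neighbours passed, beside 79 of 17217 genes. Females alone gave 0 of 19, beside 35 of 16479 genes, and males alone 0 of 20, beside 107 of 16408 genes. Gene counts cannot show whether sequence variants between the lines alter transcription or the mapping of reads, and this was not tested.

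**Figure D4:**
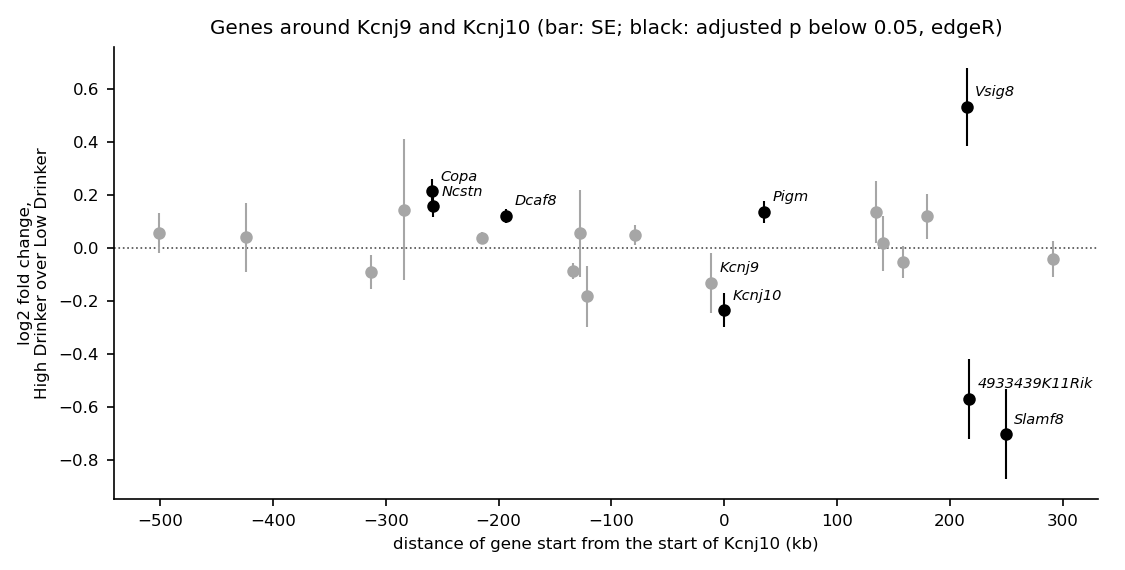
Log2 fold change (High Drinker over Low Drinker, bar: SE) of 21 genes within 500 kb of Kcnj9 or Kcnj10 and of that pair, by the distance of each gene's start from that of Kcnj10 in kb. Black points have an adjusted p below 0.05 in edgeR. Kcnj10 and Kcnj9 lie below 0, while their neighbour Pigm lies above 0 (edgeR adjusted p = 0.0487). The call of Pigm was kept in 4 of 14 alternatives.

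Genes that work with these channels were counted by list. Beside the 3.94% of all tested genes that passed, a list of this size would hold about 1 call or none, so the counts say nothing particular about the lists. The lists were chosen with earlier results of these data known and carry no test of their own. Among 16 genes of astroglial potassium, water and glutamate handling 1 rose and 0 fell, with a median log2 fold change of 0.07, beside 0.0013 over all genes tested. It was Glul, the glutamine synthetase of astrocytes on chromosome 1 (153899944 to 153909723). Glul averaged 1085.4 ± 105.3 CPM (SD) over the 44 High Drinker libraries and 947 ± 154 CPM over the 40 Low Drinker libraries, exceeded the median of the Low Drinker group in 41 of 44 High Drinker libraries, and had a log2 fold change of 0.21 ± 0.04 (SE, edgeR adjusted p = 0.00126), a call kept in 11 of 14 alternatives. So Kcnj10 fell while Glul rose.

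Each of the next counts also stands beside that share of 3.94% over all genes. At an unadjusted p under 0.05 in edgeR the line difference gave 3078 of 17071 genes. Among 22 tested receptors that open Kir3 channels 0 passed in edgeR, DESeq2 or limma-voom (3 at an unadjusted p under 0.05 in edgeR), with a median log2 fold change of 0.06. Among 21 tested G protein subunits, RGS proteins and trafficking genes 1 fell, Gng3, a neuronal G protein gamma subunit. Gng3 averaged 185 ± 30.1 CPM (SD) over the 44 High Drinker libraries and 216 ± 42.7 CPM over the 40 Low Drinker libraries, a log2 fold change of -0.18 ± 0.05 (SE, edgeR adjusted p = 0.0384). The call of Gng3 was lost without the 5 libraries that stood apart (log2 fold change -0.14, edgeR adjusted p = 0.160) and kept in 8 of 14 alternatives, with an adjusted p from 4.27e-05 to 0.685. Among 14 genes that anchor Kir2 channels or make the phospholipid that keeps them open 0 passed in edgeR, DESeq2 or limma-voom (4 at an unadjusted p under 0.05 in edgeR), with a median of 0.04.

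The other inward rectifier genes were scarce in this tissue. Kcnj8 was given above, Kcnj14 averaged 1.44 ± 0.418 CPM across High Drinker libraries and 1.47 ± 0.385 CPM across Low Drinker libraries (log2 fold change -0.03, edgeR adjusted p = 0.908), and Kcnj13, a channel of the choroid plexus, averaged 0.223 ± 0.242 CPM across High Drinker libraries and 0.279 ± 0.346 CPM across Low Drinker libraries (log2 fold change -0.24, edgeR adjusted p = 0.785). Kcnj1 and Kcnj15 had too few counts to be tested, with 11 and 138 reads over all 84 libraries.

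Sex did not separate the channels detectably. In edgeR 0 of the 10 genes differed between females and males (0 at an unadjusted p under 0.05), where 0.0996% of all genes did, and the log2 fold changes, female over male, ran from -0.04 for Kcnj4 to 0.10 for Kcnj2. The line difference itself did not depend on sex for any of the 10 by the interaction test (0 at an unadjusted p under 0.05, smallest edgeR adjusted p = 0.784), and 0.0% of all genes passed, with 965 at an unadjusted p under 0.05. The design text of the series names differential variance as a further question. Absolute deviations from the median of line and sex did not differ between lines for any of the 10 genes (limma, 0 at an unadjusted p under 0.05, smallest adjusted p = 0.979), where 0.0117% of all genes passed.

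Over the 84 libraries the channels fell into opposing groups. After sheet set, sex and line were removed from log2 CPM, the Kir3 genes Kcnj3, Kcnj6 and Kcnj9 varied together, while Kcnj2 and Kcnj4 of the Kir2 subfamily varied against them. The grouping was not particular to Kir3 genes. The glial gene Kcnj16 had r = 0.66 with Kcnj3, 0.62 with Kcnj9 and 0.55 with Kcnj6, and r = -0.51 with Kcnj4. Of the 45 pairs 38 passed (permutation test of Pearson's r with 100000 resamples, two-sided, Benjamini-Hochberg adjustment over the 45 pairs at 0.05), 23 with positive and 15 with negative r. For 34 of the 38 the sign was the same within sheet sets 1 and 2 and without the 5 libraries that stood apart. The share of all gene pairs that would pass was not computed, so the count of 38 does not set the channels apart from other genes.

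The closest pair was Kcnj3 and Kcnj6, with Pearson's r = 0.91 and Spearman's rho = 0.89. Kcnj3 and Kcnj9 had r = 0.87 and rho = 0.86, and Kcnj6 and Kcnj9 r = 0.80 and rho = 0.77. Each of these r and rho had a permutation p = 1e-05, the smallest the resamples can give, with an adjusted p = 2.65e-05 for r and 3.00e-05 for rho. Without the 2 libraries farthest from the median of the first gene r was 0.88, 0.86 and 0.78 for the same pairs in that order. Within sheet set 1 r was 0.90, 0.92 and 0.85, and within sheet set 2 it was 0.93, 0.75 and 0.70. So in either set libraries higher in 1 of these subunits tended to be higher in the others, with exceptions. Low Drinker 34, in sheet set 2 and among the libraries that stood apart, had the highest Kcnj9, 288 CPM, with Kcnj3 at 98.7 CPM.

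The strongest opposition was between Kcnj2 and Kcnj9, with r = -0.79 and rho = -0.78 (permutation p = 1e-05 and adjusted p as above, r = -0.77 without the 2 farthest libraries). It was -0.80 within sheet set 1 and -0.75 within sheet set 2. Kcnj2 and Kcnj3 had r = -0.69, while Kcnj2 and Kcnj4 had r = 0.55, both with permutation p = 1e-05. Kcnj5 stood apart from the other Kir3 genes, with r = -0.37 with Kcnj3, -0.35 with Kcnj6 and -0.51 with Kcnj9, and r = 0.37 with Kcnj2. Kcnj2 and Kcnj16 are neighbours on chromosome 11, 38196 bases apart, and had r = -0.52. Kcnj12, the third Kir2 gene, had r = -0.38 with Kcnj4, r = 0.52 with Kcnj11 and r = 0.45 with Kcnj9. The sign of Kcnj12 with Kcnj4 was not kept, at 0.03 within sheet set 1 and -0.70 within sheet set 2.

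The pairs on chromosome 1 and in astrocytes were looser. Kcnj9 and Kcnj10 had r = 0.33 and rho = 0.31 (permutation p = 0.00223 for r and 0.00416 for rho, adjusted p = 0.00324 and 0.00624), with r = 0.24 without the 2 farthest libraries. That relation was r = 0.47 within sheet set 1 and r = -0.05 within sheet set 2, so it did not hold in both. Kcnj10 and Kcnj16 had r = 0.43 and rho = 0.37 (permutation p = 5e-05 for r and 0.00065 for rho, adjusted p = 0.000118 and 0.00122), with r = 0.36 without the 2 farthest libraries. It was r = 0.50 within sheet set 1 and r = 0.03 within sheet set 2.

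Marker lists of 10 cell types were set beside the same values. Of 100 relations between a channel and a list 56 passed (permutation test, Benjamini-Hochberg adjustment over the 100 at 0.05), and 51 did without the 5 libraries that stood apart. The share of other genes that would pass was not computed, so these counts do not set the channels apart either. Kcnj3, Kcnj9 and Kcnj6 followed the 7 cortical glutamatergic markers, with r = 0.94, 0.94 and 0.87 and rho = 0.92, 0.95 and 0.83 (each permutation p = 1e-05, adjusted p = 4.17e-05). They ran against the 12 medium spiny neuron markers, with r = -0.73, -0.84 and -0.63. Without the 5 libraries that stood apart the relations with cortical markers were 0.94, 0.94 and 0.87, and those with medium spiny neuron markers -0.83, -0.86 and -0.76.

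Kcnj2 and Kcnj4 followed the medium spiny neuron markers, with r = 0.87 and 0.65 and rho = 0.89 and 0.65 (each permutation p = 1e-05, adjusted p = 4.17e-05). Within sheet sets 1 and 2 these were 0.89 and 0.85 for Kcnj2 and 0.69 and 0.65 for Kcnj4. Against the cortical markers Kcnj2 had r = -0.77 and Kcnj4 r = -0.51. The remaining Kir2 gene, Kcnj12, ran against the medium spiny neuron markers, with r = -0.41. Within sheet set 1 that value was -0.31, and within sheet set 2 it was -0.58. Kcnj5 had its highest r with the 5 cholinergic interneuron markers (r = 0.66, rho = 0.60) and with the medium spiny neuron markers (r = 0.59), and of the 10 genes it had the highest r with the GABAergic interneuron markers (r = 0.57, rho = 0.63). The cholinergic and medium spiny neuron lists share an axis in these libraries, with Kcnj2 at r = 0.85 with the cholinergic list as well. The part of tissue composition in these relations was not tested apart from expression within cells.

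Both glial genes followed the 11 astrocyte markers. The value was r = 0.58 for both Kcnj10 (rho = 0.52) and Kcnj16 (rho = 0.61), with permutation p = 1e-05 and adjusted p = 4.17e-05 for r. Within sheet set 1 it was 0.58 for Kcnj10 and 0.69 for Kcnj16, and within sheet set 2 it was 0.51 for Kcnj10 and 0.26 for Kcnj16. They differed elsewhere. Kcnj16 had r = -0.63 with medium spiny neuron and r = 0.59 with cortical markers, whereas Kcnj10 had r = -0.10 and r = 0.23. Kcnj10 also had r = 0.47 with the 5 oligodendrocyte precursor markers and r = 0.34 with the 8 oligodendrocyte markers, cells that carry Kir4.1 as well. In the line difference 0 markers of medium spiny neurons, cortical neurons, either interneuron class or astrocytes passed in edgeR, DESeq2 or limma-voom, while 1 of 5 oligodendrocyte precursor markers, Cspg4, rose (log2 fold change 0.21, edgeR adjusted p = 0.00344). All 5 precursor markers had a positive log2 fold change, and 4 of 5 had an unadjusted p under 0.05, beside 3078 of 17071 tested genes. Of 7 endothelial and mural markers 1 rose, Abcc9, and over all genes 3.94% passed.

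**Figure D5:**
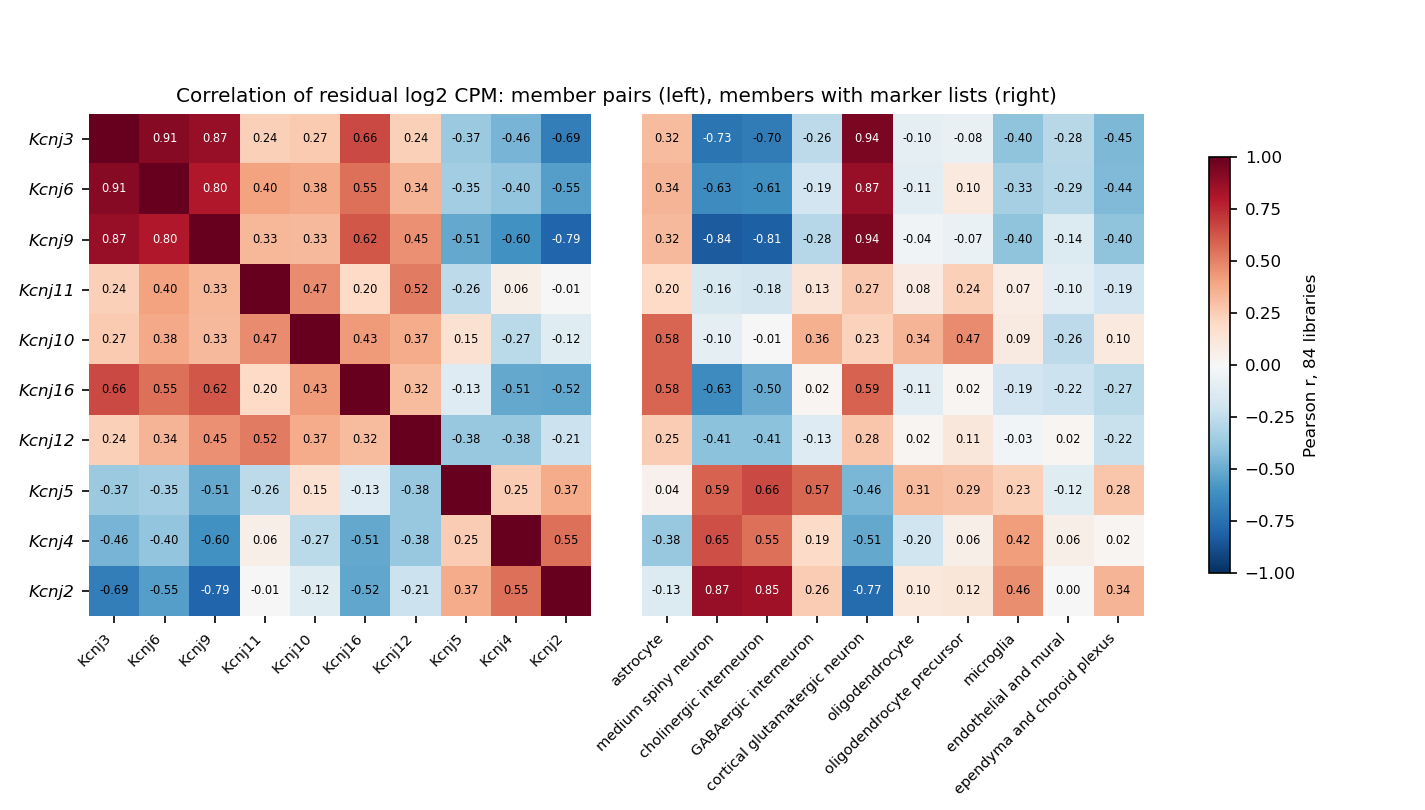
Pearson's r of residual log2 CPM over 84 libraries, after removal of sheet set, sex and line. The left block holds pairs of the 10 genes and the right block each gene with the mean of 10 cell type marker lists, with red positive and blue negative. Kcnj3, Kcnj6 and Kcnj9 form a red block (r from 0.80 to 0.91) that is blue against Kcnj2 and the medium spiny neuron list.

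The genes most like each channel over the 84 libraries were named by the highest r among 13303 genes, as a description with no test. Kcnj2 was closest to Htr1b (r = 0.95), Strn (0.94) and Slmap (0.93). Htr1b, a serotonin receptor coupled to Gi, is itself among the receptors known to open Kir3 channels. Kcnj4 was closest to Wscd2 (0.87), Smarcd1 (0.86) and Mn1 (0.86), and Kcnj12 to Flywch1 (0.72), Cacng2 (0.72) and Rims3 (0.71).

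Kcnj9 was closest to the potassium channel gene Kcnk4 (r = 0.97), to Car10 (0.97) and to the adrenergic receptor gene Adra1d (0.97). Kcnj3 was closest to the postsynaptic scaffold gene Dlgap1 (0.97), to Fam81a (0.96) and to the neuronal RNA binding gene Elavl4 (0.96). Kcnj6 was closest to the bicarbonate transporter gene Slc4a8 (0.94), to the somatostatin receptor gene Sstr1 (0.94) and to Nav3 (0.94). The highest values for Kcnj5 were lower, with Nxph4 (0.76), Rcan3 (0.73) and Galnt10 (0.72). They were lower too for Kcnj11, with Nomo1 (0.77), Nfe2l1 (0.75) and Foxo3 (0.74), and for Kcnj10, with Pcyt1a (0.73), Lbh (0.72) and Gprc5b (0.71). Kcnj16 was closest to Cd83 (0.84), Pkib (0.83) and Bcat1 (0.82), none of which was among the 3 closest to Kcnj10.

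The series also asked whether genes are wired differently between the lines. For 0 of 45 pairs did r differ between High Drinker and Low Drinker animals after adjustment (permutation of the line labels within sex and sheet set, 100000 resamples), and 4 had an unadjusted p under 0.05. Of these 4, 3 involved Kcnj12: with Kcnj9 r was 0.22 among High Drinker and 0.70 among Low Drinker animals (permutation p = 0.0110, adjusted p = 0.494), with Kcnj3 it was 0.04 among High Drinker and 0.52 among Low Drinker animals (permutation p = 0.0453, adjusted p = 0.529), and with Kcnj16 it was 0.16 among High Drinker and 0.52 among Low Drinker animals (permutation p = 0.0467, adjusted p = 0.529). The last, Kcnj6 with Kcnj9, had r = 0.88 among High Drinker and 0.70 among Low Drinker animals (permutation p = 0.0470, adjusted p = 0.529). Without the 5 libraries that stood apart the unadjusted permutation p was 0.0451 for Kcnj12 with Kcnj9, but 0.128 for Kcnj12 with Kcnj3, 0.134 for Kcnj12 with Kcnj16 and 0.197 for Kcnj6 with Kcnj9.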

How the data were processed

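Ventrolateral striatum of 84 mice was sequenced. Per the labels' protocols, RNA was isolated with Trizol, turned into amplified cDNA with an Ovation RNA-Seq kit, and sequenced as single-end reads of 100 bp, 6 libraries per lane. As described, this protocol keeps no record of strand. The deposited table holds raw counts of reads for each gene, together with gene coordinates and lengths in bases. Genome build mm10 and the tools STAR, featureCounts (Subread), FastQC and edgeR are named in the submitters' processing notes, with versions and counting settings not stated there.

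Counts were tested with edgeR 4.0.16 in R 4.3.3 (TMM, filterByExpr, quasi-likelihood F-test, model with sheet set, sex and line), adjusted by Benjamini-Hochberg over 17071 genes. CPM are counts relative to TMM-scaled library totals, and RPKM divide them by the deposited length in kilobases. Deviations were tested with limma 3.58.1 on log2 CPM (prior count 2). Correlations used residual log2 CPM and permutation tests. Depth ran from 22190363 to 41300401 counts per library, and the errors given hold counting error and spread between animals together. Tests were two-sided, and those across genes were tested on simulated data. DESeq2 1.42.0, limma-voom, sva 3.50.0 and other subsets of libraries were alternatives.

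The genes, lists and tests were chosen with earlier results of these data known. Named genes were all 10 channels, partner genes past the threshold (at most 4 per list), the other tested inward rectifier and sulfonylurea receptor genes, at most 6 neighbours by smallest p, and the 3 genes most like each channel with at least 1 CPM. Replicate numbers follow accession order and pair no samples. For 1 gene, left out of the lists and of the neighbours but kept in the fits, values are not reported here.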

Additional observations from a re-analysis of the deposited data

How the results depend on the processing

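The count of 1 channel past the threshold was 1 with RLE normalization, with no filter on low counts, with DESeq2, with limma-voom, with no sheet set term, without the 5 libraries that stood apart, without High Drinker 11 and with marker scores as covariates. It was 0 in sheet set 1 alone, in sheet set 2 alone, without sheet set 3, in females alone and in males alone, and 3 with 5 surrogate variables. The smaller sets have fewer animals, and over all genes 79 passed in sheet set 1, 79 in sheet set 2, 35 in females, 107 in males, 425 without the 5 libraries and 2278 with surrogate variables, against 672 with all libraries. Leaving out 1 library at a time gave between 469 and 843 genes. The 3 partner genes became 1 in sheet set 1, 0 in sheet set 2, 0 in females, 0 in males, 5 without sheet set 3, 1 without the 5 libraries and 16 with surrogate variables. For sex, 17 genes became 34 with no filter. For the interaction, 0 genes became 1 with no sheet set term (edgeR). For variability, 2 genes became 5 with a prior count of 0.5, 0 without the 5 libraries (limma) and 1 with no sheet set term.

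Small differences that had not passed also changed sign. For the line, Kcnj2 was -0.068 in sheet set 1, -0.076 in females, -0.045 without the 5 libraries, -0.059 with marker scores and from -0.020 to 0.083 in the fits without 1 library. Kcnj3 was -0.0030 with no sheet set term, -0.078 in sheet set 2 and -0.026 in males. Sheet set 2 gave 0.021 for Kcnj12, 0.217 for Kcnj5 and -0.158 for Kcnj11. Females gave 0.025 for Kcnj9, males 0.065 for Kcnj5 and -0.019 for Kcnj16, and marker scores -0.0064 for Kcnj16. For sex, Kcnj12 was 0.0094 and Kcnj11 0.00090 with no sheet set term, and without the 5 libraries Kcnj12 was 0.029, Kcnj3 0.061, Kcnj5 -0.052 and Kcnj11 0.035. For variability, without the 5 libraries Kcnj6 was 0.0024 and Kcnj16 -0.00066, and with no sheet set term Kcnj12 was -0.0084 and Kcnj6 0.036. Among pairs, Kcnj4 with Kcnj12 was r = 0.035 in sheet set 1, and in sheet set 2 Kcnj10 was r = -0.176 with Kcnj3, -0.0063 with Kcnj6 and -0.053 with Kcnj9. The cause of these changes was not tested.

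No paired analysis was possible because the replicate numbers were given in accession order and the labels pair no animals. No separate fit was made of the 6 libraries of sheet set 3. Counting error was not separated from the spread between animals, and Kcnj5 had the fewest counts of the channels.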
